A study of Homo sapiens with 12 samples.

Results

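The 46 interferon response genes described here are a named list of genes that interferon is known to induce, with the factors and enzymes of their pathway. Each gene was represented by the probe set that carries its symbol alone and has the highest mean over the 12 arrays. A probe set was found for 45 of the 46, of 19775 genes named on the array; STAT2 is not analysed here. Of the 45, 40 passed the filter on low values and were among the 12824 genes tested. The 5 that fell under it were IFI27, IFI44L, OAS1, OAS2 and SAMHD1. The rule uses no measured value other than the mean over the 12 arrays, which picks the probe set.

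The arrays came from Jurkat, a cell line from a human T-cell leukaemia, that carried either a construct for miR-21 or the control vector. RNA was measured after immunoprecipitation (IP) of AGO2, after IP with a control IgG, and in the whole lysate (Total RNA). The 6 groups were therefore miR-21 AGO2 IP, control vector AGO2 IP, miR-21 IgG IP, control vector IgG IP, miR-21 Total RNA and control vector Total RNA, with 2 replicates each. All of the cells were grown in RPMI with 10% serum, and the labels name no interferon or other treatment. They do not say how the constructs were delivered, whether the cells were a clone or a pool, or whether a replicate was a separate culture, so p-values measure only the spread between these arrays. The probes were labelled from 100 ng of IP RNA but 1 ug of Total RNA.

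Type I interferon binds a cell-surface receptor whose kinases phosphorylate STAT proteins. These join IRF9 and bind the interferon-stimulated response element (ISRE) in the promoters of antiviral genes. Interferon gamma acts through a second element (GAS), and its early target IRF1 is itself a transcription factor for many of the same genes. Cells that have met no interferon still transcribe many of these genes at a basal rate. AGO2 is the Argonaute protein that carries a miRNA to its target mRNAs, so an AGO2 IP recovers mRNAs bound by miRNA complexes together with whatever an IgG IP recovers non-specifically.

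The constructs differed by miR-21, whose mature sequence in RefSeq (hsa-miR-21-5p, GRCh38.p14, chr17:59841273-59841294, strand +) is shown because it defines them, with the seed, bases 2 to 8, in capitals.
hsa-miR-21-5p: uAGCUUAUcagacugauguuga

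RefSeq promoters, from 250 bases before to 50 bases after the start, were at hand for 36 of the 46 genes. The ISRE core, a pair of TTTC runs with any 2 bases between them, searched on both strands with overlaps allowed, was present in 21 of the 36 (58.3%), against 996 of all 27305 promoters (3.65%). The GAS core TTCNNNGAA was present in 9 of the 36 (25.0%), against 2152 promoters (7.88%). The promoters of IFIT1, IFI44, ISG15 and IFITM1 are shown because all hold the motif, while in replicate 2 the IPs held more signal than Total RNA for IFIT1 and IFI44 and less for ISG15 and IFITM1. Each window runs from 130 bases before the start through the first 10 bases of the transcript in GRCh38.p14, and capitals mark the ISRE cores.
IFIT1, chr10:89392493-89392632, strand +: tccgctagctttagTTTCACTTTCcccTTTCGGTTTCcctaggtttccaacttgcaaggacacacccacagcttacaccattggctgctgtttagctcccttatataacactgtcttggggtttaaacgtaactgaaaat
IFI44, chr1:78649659-78649798, strand +: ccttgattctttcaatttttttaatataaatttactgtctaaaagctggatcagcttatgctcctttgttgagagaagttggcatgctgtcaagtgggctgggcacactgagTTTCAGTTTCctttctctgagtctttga
ISG15, chr1:1013367-1013506, strand +: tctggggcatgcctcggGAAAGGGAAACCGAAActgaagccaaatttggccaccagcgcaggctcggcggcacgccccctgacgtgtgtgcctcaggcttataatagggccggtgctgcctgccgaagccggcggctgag
IFITM1, chr11:313910-314049, strand +: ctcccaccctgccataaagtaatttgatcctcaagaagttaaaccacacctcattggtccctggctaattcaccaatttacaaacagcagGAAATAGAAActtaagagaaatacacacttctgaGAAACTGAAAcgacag

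In IFIT1 the motif began 116 and 103 bases before the start, and in IFI44 18 bases before it. In ISG15 the cores overlapped, 113 and 107 bases before the start, and in IFITM1 they lay 40 and 6 bases before it. The promoters of IRF9, IRF1 and RNF213 had no ISRE core in this window, and those of IRF9 and IRF1 each had 1 GAS core. A match of letters is a description and says nothing of binding in these cells.

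Values are log2 robust multi-array average (RMA) signals, and their level differed by replicate number: array medians were 3.55 to 3.67 in replicate 1 and 4.38 to 4.48 in replicate 2. The comparisons between fractions were therefore also made within each replicate number, and all comparisons with the replicate number as a block. Within a construct, the AGO2 IP array of replicate 1 differed from its IgG IP array with a standard deviation (SD) over genes of 0.791 (miR-21) and 0.828 (control vector). In replicate 2 the same SDs were 0.292 and 0.184, and r over genes was 0.992 and 0.997. The replicate 2 array labelled control vector AGO2 IP was thus nearly the same as the one labelled control vector IgG IP, while the replicate 2 arrays labelled IgG IP differed by construct with an SD of 0.619, against 0.306 in replicate 1. These 2 arrays, labelled control vector AGO2 IP replicate 2 and miR-21 IgG IP replicate 2, go against the pattern of replicate 1, and results are given with and without them. The difference between the 3′ and the 5′ probe sets of ACTB, a measure of RNA and label quality, ran from 1.35 to 4.0 over the 12 arrays. In replicate 1 it was 1.35 and 1.38 in Total RNA and 1.97 to 4.0 in the IPs, with 4.0 in control vector AGO2 IP. In replicate 2 it was 3.18 and 3.53 in Total RNA, 2.08 and 2.58 in AGO2 IP, and 3.48 and 2.57 in IgG IP, miR-21 first. It thus differed by fraction, in another order in each replicate, and its part in the results was not tested.

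The labelled cell type was checked against its markers. Of 10 T cell markers, 7 (CD3D, CD3G, CD2, LCK, ZAP70, LAT and PTPRC) lay above all 15 genes of other tissues in the 4 Total RNA arrays. CD3E lay at the 71.8 to 80.9 percentile, CD7 at 66.8 to 69.3 and CD28 at 51.4 to 62.4. None of 2 B cell, 4 monocyte, 2 plasmacytoid dendritic cell, 4 epithelial and 1 erythroid marker lay above all 15 genes. The top of the 15 was MBP, at up to the 88.7 percentile, and the other 14 reached 75.9. Epithelial markers reached 77.8 and B cell markers 76.0, past the level of these 14. The mean log2 signal of the 10 T cell markers was 8.02 and 8.82 with miR-21 and 8.09 and 8.60 with the vector in AGO2 IP, replicate 1 before replicate 2. It was 8.25 and 8.97 with miR-21 and 8.04 and 8.68 with the vector in IgG IP, and 8.39 and 9.14 with miR-21 and 8.29 and 9.22 with the vector in Total RNA. It was thus lower in the IPs than in Total RNA of the same replicate, and its part in the results was not tested.

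In Total RNA, 38 of the 45 genes were above the median of their array in all 4 arrays, and 6 were above the 90th percentile in all 4: B2M, ADAR, UBE2L6, ISG15, IFITM2 and PSMB9. The 7 that were not above the median throughout were IFI27, IFI44L, MX1, OAS1, OAS2, TRIM22 and SAMHD1. Signal also depends on the probes, so these percentiles give the place of a probe set within its array and no order of abundance between genes. In bulk RNA, fewer cells with a transcript and less transcript per cell cannot be told apart.

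Genes of other tissues, such as albumin and insulin, gave the level of a probe set with little or no target: 15 of them had a median percentile of 36.6 and a range from 5.45 to 88.7. The top of that range came from MBP alone, and the other 14 reached 75.9. Against these 14, a comparison chosen after the values were seen, 22 of the 45 interferon response genes were higher in all 4 Total RNA arrays, 8 in 1 to 3 arrays and 15 in none. With MBP included, the counts were 8, 6 and 31. With MBP left out, the 15 in none were IFI27, IFI35, IFI44L, IFIH1, IFIT1, IFIT2, IFIT3, BST2, MX1, MX2, OAS1, OAS2, OASL, SAMHD1 and TRIM22. The 8 in 1 to 3 arrays were DDX60, IFI44, IRF1, IRF3, IRF7, IRF9, ISG20 and OAS3. For these genes the differences from Total RNA given below are no exact sizes.

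The antigen processing genes and the ISG15 system lay in the upper part of all 4 arrays. B2M, the invariant chain of HLA class I, lay at the 99.5 to 99.7 percentile of the 4 arrays. Its 4 Total RNA values were 12.52 and 13.43 with miR-21 and 12.40 and 13.41 with the control vector, replicate 1 first in each pair. PSMB8 and PSMB9, subunits of the immunoproteasome, lay at the 89.3 to 94.3 and the 90.1 to 95.3 percentile, and TAP1, a subunit of the peptide transporter, at the 81.1 to 85.7 percentile. ISG15, a ubiquitin-like modifier, lay at 93.7 to 94.3, its conjugating enzyme UBE2L6 at 94 to 96.1, and USP18, the protease that removes it, at 76.4 to 80.9.

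ADAR, which edits adenosine in double-stranded RNA, lay at the 98.1 to 98.4 percentile, and EIF2AK2 (PKR), a kinase that senses such RNA, at 79.2 to 85.7. The cytoplasmic RNA sensor IFIH1 (MDA5) lay at 70.4 to 72.3. The IFITM proteins, which hinder virus entry at membranes, lay at 86.2 to 88.7 (IFITM1), 92.9 to 94 (IFITM2) and 85.9 to 89.1 (IFITM3). The IFITM genes are alike in sequence and all 3 probe sets carry the suffix for cross-matching designs, so their signals may be shared.

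The IFIT genes, whose products bind viral RNA, lay as follows: IFIT1 at the 64.1 to 70.9 percentile, IFIT2 at 58.3 to 69.4, IFIT3 at 59.8 to 65.5 and IFIT5 at 82.3 to 84.5. The OAS enzymes, which make the activator of RNase L, ran from 29.7 to 50.4 for OAS1 to 69.9 to 72.5 for OAS3. MX1, the dynamin-like antiviral GTPase, lay at 48.3 to 58.3, and its paralogue MX2 at 55.3 to 63.2. SAMHD1, which breaks down deoxynucleotides, lay at 30.7 to 51.3, and all 6 of its probe sets were under the filter. Of the regulators, IRF9 lay at 66.4 to 71.4, IRF1 at 75 to 78.8, IRF2 at 78.6 to 81.2, IRF3 at 72.3 to 82.6 and IRF7 at 69.6 to 75.4. Among 18 interferon genes with a probe set, none passed the filter, and their percentiles ran from 0.456 to 48.4.

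**Figure D1:**
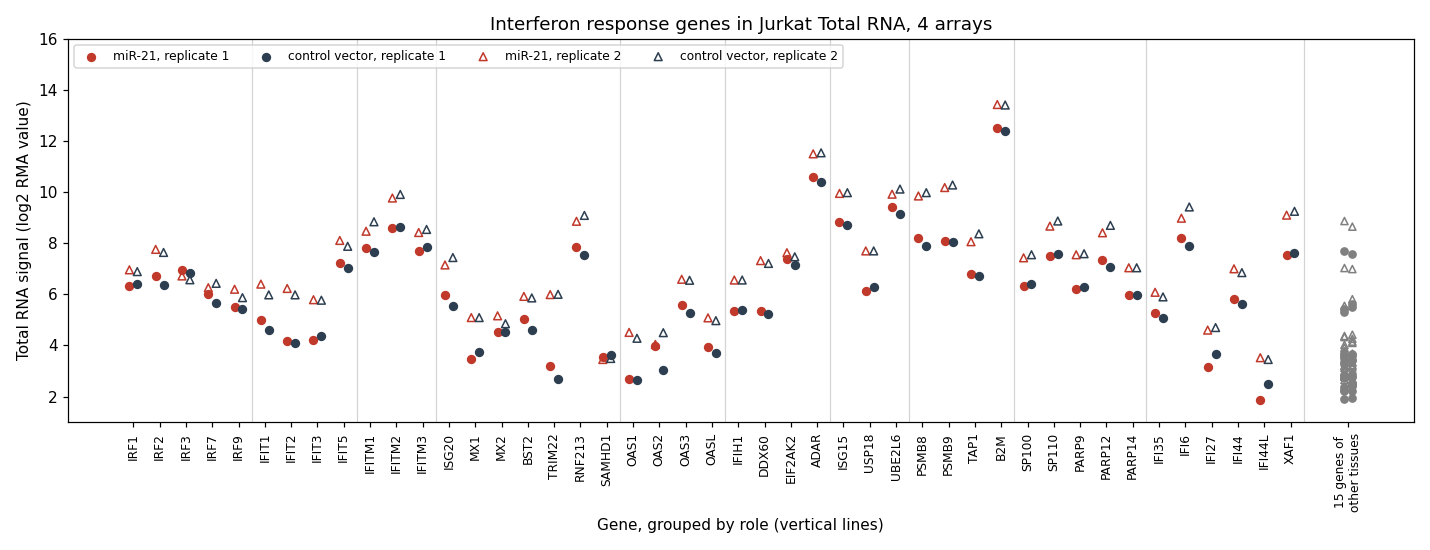
Log2 RMA signal of the 45 interferon response genes in the 4 Total RNA arrays (y axis), grouped by role along the x axis, with 15 genes of other tissues at the right. Circles are replicate 1 and triangles replicate 2, with miR-21 to the left of the control vector for each gene; B2M and ADAR lie highest in all 4 arrays, and the constructs of a replicate lie close together.

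The first comparison sets the constructs against each other in Total RNA. For the 40 tested genes miR-21 minus control vector ran from -0.28 to 0.49 in replicate 1 and from -0.44 to 0.43 in replicate 2, with medians of 0.14 and 0.00. None was called (0% of all genes tested), with or without the replicate block, and none had an unadjusted p under 0.05 in limma. Of all 12824 genes, 0 had an unadjusted p under 0.05 without the block and 3 with it. The 3 highest mean differences were those of IFIT1, BST2 and TRIM22. IFIT1 had 0.40 ± 0.59 (SE, adjusted p = 1) with the block, BST2, which tethers virus particles to the cell, 0.24 ± 0.31 (SE, adjusted p = 1), and TRIM22, a restriction factor of the tripartite motif family, 0.24 ± 0.25 (SE, adjusted p = 1). The 3 lowest were -0.15 ± 0.59 (SE, adjusted p = 1) for IFITM3, -0.14 ± 0.30 (SE, adjusted p = 1) for MX1 and -0.14 ± 0.26 (SE, adjusted p = 1) for SP110, a nuclear body protein.

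AGO2 IP was then compared with Total RNA, which asks which transcripts an AGO2 IP holds at a larger or smaller share than the lysate. The regulators IRF9 and IRF2 were higher in AGO2 IP, and 9 genes, among them RNF213, ISG15, ADAR and IFITM1, were lower, but these calls rest on the fit with the replicate number as a block. Without the block, limma called 0 of the 40 genes (0% of all genes tested); 9 had an unadjusted p under 0.05, as did 1230 of all genes (9.59%). With the block, 2 rose (background 4.71%) and 9 fell (background 11.3%). The median over the 40 genes was -0.40, with 12 above 0 and 28 below, while the median over all genes tested was -0.05. An IP signal is a share of the RNA labelled, so more of a transcript bound and less of other transcripts recovered cannot be told apart. Every IP was labelled from 100 ng and Total RNA from 1 ug. In any difference from Total RNA, labelled amount and recovery therefore cannot be told apart either.

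The count with the block depended on single arrays. It was 0 without miR-21 AGO2 IP replicate 1, without miR-21 AGO2 IP replicate 2, without miR-21 Total RNA replicate 2 or without control vector Total RNA replicate 2. It was 3 (ADAR, ISG15 and RNF213) without control vector AGO2 IP replicate 1 and 6 without miR-21 Total RNA replicate 1. Without the 2 arrays that go against replicate 1, 3 genes rose (IRF1, IRF2 and IRF9, background 8.58%) and 10 fell (ADAR, DDX60, IFI35, IFIH1, IRF7, ISG15, OAS3, PARP14, RNF213 and XAF1, background 13.3%), so IFITM1 and UBE2L6 were no longer called. The 2 arrays were chosen from the values, and each of their groups then has 1 array, which is assumed to vary like the other groups. Calls made without these 2 arrays are therefore a description and no test. Under quantile normalization and under cyclic loess, each with the block, the split was 5 higher and 6 lower, with IFIT3, IFIT5 and SP100 added to the higher side. IFITM1 and UBE2L6 were lost under both, IFI35 under quantile normalization and ISG15 under cyclic loess. The share of all genes called under these normalizations is not given here. Within each replicate, taking the constructs as its replicates, limma called 4 higher (12.6%) and 11 lower (22.5%) in replicate 1, and 6 higher (11.7%) and 12 lower (16.2%) in replicate 2.

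**Figure D2:**
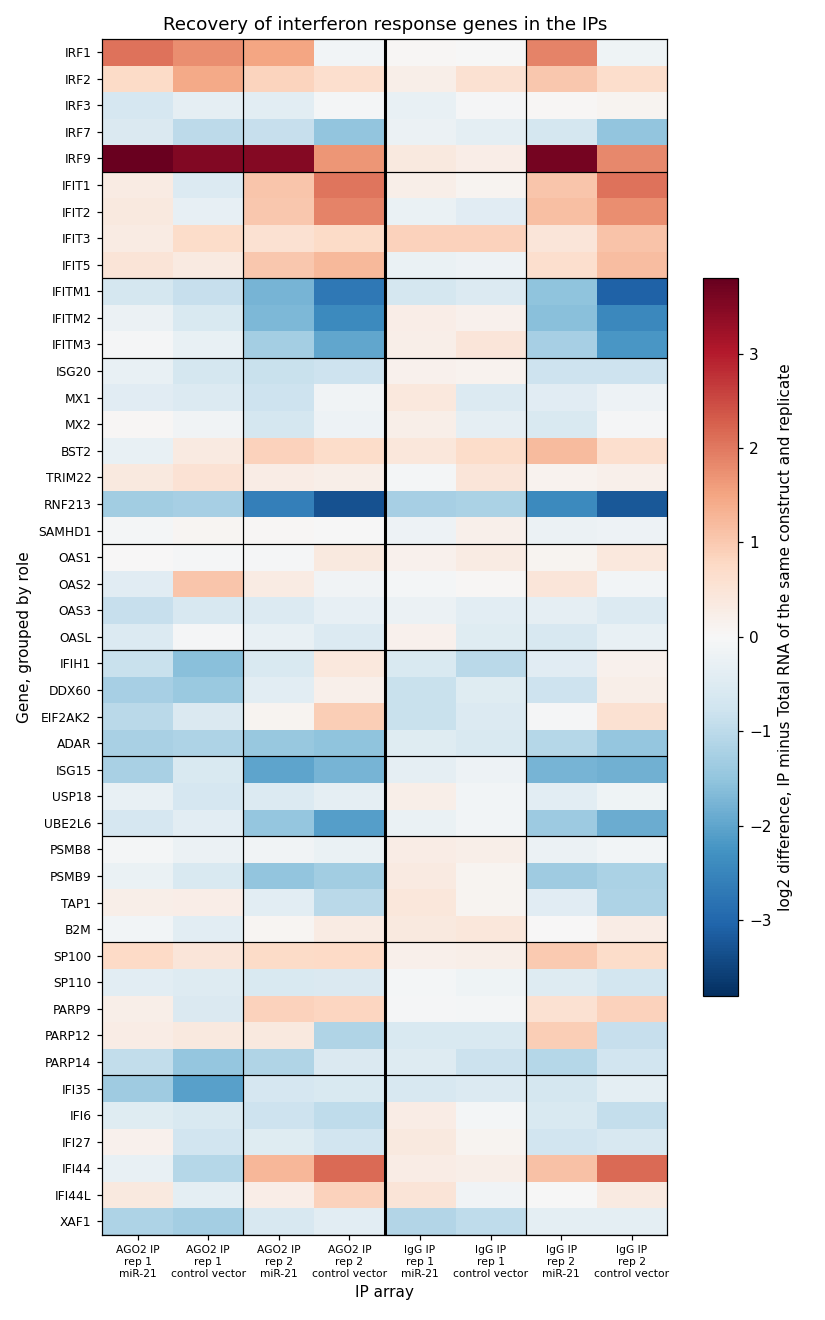
Log2 difference of each IP array from the Total RNA array of the same construct and replicate (colour) for the 45 genes (rows, grouped by role), with the 4 AGO2 IP arrays on the left and the 4 IgG IP arrays on the right. IRF9 is high in all 4 AGO2 IP arrays and also in both IgG IP arrays of replicate 2. RNF213 is low in all 8 IP arrays, and the IFIT1, IFIT2, IFI44 and IFITM rows differ between replicates.

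Of the 5 measured transcription factors, IRF9 and IRF2 rose and IRF7 fell with the block. In replicate 1 IRF9 read 9.24 with miR-21 and 8.94 with the vector in AGO2 IP, with IgG IP at 5.85 and 5.66 and Total RNA at 5.49 and 5.42. In replicate 2 it read 9.69 with miR-21 and 7.54 with the vector in AGO2 IP, with IgG IP at 9.84 and 7.69 and Total RNA at 6.20 and 5.87. The AGO2 IP arrays of replicate 1 stood far above the other 4, whereas in replicate 2 all 4 IPs were above Total RNA and the miR-21 IPs above the vector IPs. The difference was 3.11 ± 0.69 (SE, adjusted p = 0.023) with the block, 3.64 ± 0.18 (SE, adjusted p = 7.13e-05) in replicate 1 and 2.58 ± 0.91 (SE, adjusted p = 0.0839) in replicate 2. Without the 2 arrays it was 3.68, given with no test. The Total RNA signal of IRF9 was above the 14 genes of other tissues in 1 of 4 arrays, so these differences are no exact sizes.

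IRF1 had a related pattern at a smaller size. It read 8.39 with miR-21 and 8.18 with the vector in AGO2 IP, with IgG IP at 6.37 and 6.40 and Total RNA at 6.33 and 6.41 in replicate 1, where only the AGO2 IPs were high. In replicate 2 IRF1 read 8.45 with miR-21 and 6.79 with the vector in AGO2 IP, with IgG IP at 8.86 and 6.72 and Total RNA at 6.96 and 6.89, so the miR-21 IPs were high and the vector IPs lay under Total RNA. With the block the difference was 1.31 ± 0.49 (SE, adjusted p = 0.0994), which did not pass, against 1.92 ± 0.16 (SE, adjusted p = 0.000392) in replicate 1. Without the 2 arrays it was 1.75, given with no test, since they include the vector AGO2 IP of replicate 2, which lay under Total RNA. A second IRF1 probe set had 2.36 in replicate 1 and 0.33 in replicate 2.

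IRF2, which competes with IRF1 at shared sites, read 7.44 with miR-21 and 7.81 with the vector in AGO2 IP, with IgG IP at 6.94 and 6.95 and Total RNA at 6.71 and 6.38 in replicate 1. It read 8.59 with miR-21 and 8.28 with the vector in AGO2 IP, with IgG IP at 8.77 and 8.32 and Total RNA at 7.76 and 7.64 in replicate 2. Both AGO2 IPs were above both Total RNA arrays in each replicate, with 0.91 ± 0.23 (SE, adjusted p = 0.0316) with the block. IRF7, the factor that amplifies type I interferon production, read 5.45 with miR-21 and 4.67 with the vector in AGO2 IP, with IgG IP at 5.77 and 5.30 and Total RNA at 6.01 and 5.67 in replicate 1. For IRF7 the replicate 2 values were 5.38 with miR-21 and 4.93 with the vector in AGO2 IP, with IgG IP at 5.59 and 4.91 and Total RNA at 6.26 and 6.43. It was lower in AGO2 IP within each replicate, with -0.98 ± 0.22 (SE, adjusted p = 0.024). IRF3, which acts at the first step of interferon induction, had -0.36 ± 0.17 (SE, adjusted p = 0.183) and was not called.

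None of the 4 IFIT genes was called with the block, although all 4 means were above 0 (median 0.73), and IFIT1, IFIT2 and IFI44 differed by replicate. In replicate 1 IFIT1 read 5.31 with miR-21 and 4.09 with the vector in AGO2 IP, with IgG IP at 5.21 and 4.72 and Total RNA at 4.99 and 4.62, with the fractions overlapping. In replicate 2 it read 7.47 with miR-21 and 8.01 with the vector in AGO2 IP, with IgG IP at 7.45 and 8.03 and Total RNA at 6.40 and 5.98, with all 4 IPs above both Total RNA arrays. The difference was 0.72 ± 0.41 (SE, adjusted p = 0.272) with the block, -0.11 ± 0.40 (SE, adjusted p = 0.852) in replicate 1 and 1.55 ± 0.31 (SE, adjusted p = 0.0175) in replicate 2.

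IFIT2 read 4.53 with miR-21 and 3.79 with the vector in AGO2 IP, with IgG IP at 3.91 and 3.68 and Total RNA at 4.18 and 4.11 in replicate 1. It read 7.26 with miR-21 and 7.87 with the vector in AGO2 IP, with IgG IP at 7.38 and 7.77 and Total RNA at 6.23 and 5.98 in replicate 2, again with the IPs above Total RNA. The difference was 0.02 (adjusted p = 0.964) in replicate 1 and 1.46 (adjusted p = 0.015) in replicate 2, and a second probe set had 0.14 and 0.50. IFI44, a cytoplasmic protein of unsettled role, read 5.54 with miR-21 and 4.54 with the vector in AGO2 IP, with IgG IP at 6.11 and 5.83 and Total RNA at 5.82 and 5.61 in replicate 1, with both AGO2 IPs under Total RNA. In replicate 2 it read 8.26 with miR-21 and 8.99 with the vector in AGO2 IP, with IgG IP at 8.10 and 9.0 and Total RNA at 7.0 and 6.85, so that the IPs were above Total RNA by 1.10 to 2.15. The difference was -0.68 (adjusted p = 0.145) in replicate 1 and 1.70 (adjusted p = 0.0235) in replicate 2; a second, dimmer probe set had 0.22 and -0.16.

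IFIT3 read 4.53 with miR-21 and 5.08 with the vector in AGO2 IP, with IgG IP at 5.10 and 5.25 and Total RNA at 4.23 and 4.37 in replicate 1. IFIT3 in replicate 2 had values of 6.36 with miR-21 and 6.51 with the vector in AGO2 IP, with IgG IP at 6.25 and 6.83 and Total RNA at 5.79 and 5.77. On this probe set its IPs were above Total RNA in both, with 0.58 ± 0.18 (SE, adjusted p = 0.0597) with the block, which did not pass. A second IFIT3 probe set differed by replicate, with -0.35 in replicate 1 and 0.95 in replicate 2. IFIT5 read 7.71 with miR-21 and 7.39 with the vector in AGO2 IP, with IgG IP at 6.96 and 6.87 and Total RNA at 7.21 and 7.05 in replicate 1. In replicate 2 IFIT5 read 9.12 with miR-21 and 9.11 with the vector in AGO2 IP, with IgG IP at 8.75 and 9.04 and Total RNA at 8.11 and 7.88. Its AGO2 IPs were above Total RNA within each replicate, with 0.77 ± 0.25 (SE, adjusted p = 0.0699), which also did not pass.

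In the IFITM family IFITM1 fell with the block, and IFITM2 and IFITM3 had lower values in AGO2 IP mainly in replicate 2. IFITM1 read 7.15 with miR-21 and 6.78 with the vector in AGO2 IP, with IgG IP at 7.15 and 7.14 and Total RNA at 7.82 and 7.67 in replicate 1. In replicate 2 it read 6.71 with miR-21 and 6.14 with the vector in AGO2 IP, with IgG IP at 6.92 and 5.78 and Total RNA at 8.47 and 8.84. The IPs were under Total RNA in both replicates, with -1.50 ± 0.38 (SE, adjusted p = 0.0305) with the block, -0.78 in replicate 1 and -2.23 in replicate 2.

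IFITM2 read 8.36 with miR-21 and 8.05 with the vector in AGO2 IP, with IgG IP at 8.83 and 8.79 and Total RNA at 8.58 and 8.62 in replicate 1, where the IgG IPs were slightly above Total RNA. It read 8.05 with miR-21 and 7.49 with the vector in AGO2 IP, with IgG IP at 8.18 and 7.46 and Total RNA at 9.77 and 9.91 in replicate 2, where all 4 IPs were lower. The difference was -1.23 ± 0.43 (SE, adjusted p = 0.079) with the block. IFITM3 read 7.64 with miR-21 and 7.59 with the vector in AGO2 IP, with IgG IP at 7.91 and 8.32 and Total RNA at 7.68 and 7.86 in replicate 1. The replicate 2 values of IFITM3 were 7.12 with miR-21 and 6.56 with the vector in AGO2 IP, with IgG IP at 7.17 and 6.34 and Total RNA at 8.42 and 8.54. It had -0.90 ± 0.42 (SE, adjusted p = 0.176) with the block, made of -0.16 in replicate 1 and -1.64 in replicate 2.

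Of 6 other restriction factors tested, RNF213 fell and none rose. RNF213, a large ubiquitin ligase with antibacterial activity, read 6.53 with miR-21 and 6.28 with the vector in AGO2 IP, with IgG IP at 6.60 and 6.34 and Total RNA at 7.86 and 7.53 in replicate 1. It read 6.25 with miR-21 and 5.77 with the vector in AGO2 IP, with IgG IP at 6.44 and 5.88 and Total RNA at 8.86 and 9.09 in replicate 2. All 8 IP arrays were under every Total RNA array, with -2.13 ± 0.36 (SE, adjusted p = 0.0142) with the block, -1.29 in replicate 1 and -2.96 in replicate 2. Its probe sets disagreed: among 7 others the difference ran from -2.07 to 0.23, and 5 of the 7 were below 0.

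BST2 read 4.77 with miR-21 and 4.96 with the vector in AGO2 IP, with IgG IP at 5.48 and 5.31 and Total RNA at 5.05 and 4.61 in replicate 1. For BST2 the replicate 2 values were 6.80 with miR-21 and 6.57 with the vector in AGO2 IP, with IgG IP at 7.11 and 6.51 and Total RNA at 5.92 and 5.86. It was not called in AGO2 IP against Total RNA, with 0.41 ± 0.22 (SE, adjusted p = 0.242). TRIM22 read 3.57 with miR-21 and 3.25 with the vector in AGO2 IP, with IgG IP at 3.12 and 3.16 and Total RNA at 3.19 and 2.70 in replicate 1. TRIM22 in replicate 2 had values of 6.26 with miR-21 and 6.20 with the vector in AGO2 IP, with IgG IP at 6.13 and 6.19 and Total RNA at 5.99 and 6.0. Its Total RNA signal lay within the range of the genes of other tissues, so no order or size was read from these values, and it was not called. MX1 read 3.03 with miR-21 and 3.22 with the vector in AGO2 IP, with IgG IP at 3.87 and 3.23 and Total RNA at 3.46 and 3.74 in replicate 1. The replicate 2 values of MX1 were 4.29 with miR-21 and 4.95 with the vector in AGO2 IP, with IgG IP at 4.65 and 4.89 and Total RNA at 5.09 and 5.09. Its Total RNA signal lay in the same range, and it was not called. MX2 and ISG20, an exonuclease, had -0.23 and -0.64 and were not called.

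All 4 tested RNA sensors and double-stranded RNA enzymes had means below 0, and ADAR alone was called with the block. ADAR read 9.37 with miR-21 and 9.23 with the vector in AGO2 IP, with IgG IP at 10.12 and 9.83 and Total RNA at 10.59 and 10.40 in replicate 1. In replicate 2 ADAR read 10.07 with miR-21 and 10.00 with the vector in AGO2 IP, with IgG IP at 10.40 and 10.09 and Total RNA at 11.50 and 11.54. The AGO2 IPs were under the IgG IPs and these under Total RNA within each replicate. The difference was -1.34 ± 0.21 (SE, adjusted p = 0.0123) with the block, and it was -1.34 without the 2 arrays, given with no test.

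DDX60, a helicase linked to RIG-I-like receptors, read 4.07 with miR-21 and 3.83 with the vector in AGO2 IP, with IgG IP at 4.49 and 4.78 and Total RNA at 5.34 and 5.24 in replicate 1. For DDX60 the replicate 2 values were 6.92 with miR-21 and 7.41 with the vector in AGO2 IP, with IgG IP at 6.55 and 7.43 and Total RNA at 7.32 and 7.21. It had -1.34 (adjusted p = 0.00247) in replicate 1 and -0.11 (adjusted p = 0.848) in replicate 2. EIF2AK2 read 6.36 with miR-21 and 6.61 with the vector in AGO2 IP, with IgG IP at 6.54 and 6.63 and Total RNA at 7.38 and 7.15 in replicate 1. EIF2AK2 in replicate 2 had values of 7.73 with miR-21 and 8.40 with the vector in AGO2 IP, with IgG IP at 7.59 and 8.06 and Total RNA at 7.63 and 7.47. On this probe set the EIF2AK2 difference had opposite signs by replicate, -0.78 (adjusted p = 0.0155) in replicate 1 and 0.51 (adjusted p = 0.244) in replicate 2. Another probe set, with a mean of 7.275 against 7.296, was below 0 in both, with -1.87 and -0.73. IFIH1 had -1.22 (adjusted p = 0.0139) in replicate 1 and -0.10 (adjusted p = 0.872) in replicate 2. In the OAS family, OAS3 had -0.58 ± 0.19 (SE, adjusted p = 0.0654) with the block, and OASL -0.34 ± 0.22 (SE, adjusted p = 0.335).

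In the ISG15 system ISG15 and UBE2L6 fell with the block and USP18 was not called. ISG15 read 7.60 with miR-21 and 8.13 with the vector in AGO2 IP, with IgG IP at 8.50 and 8.53 and Total RNA at 8.84 and 8.71 in replicate 1. It read 7.96 with miR-21 and 8.19 with the vector in AGO2 IP, with IgG IP at 8.17 and 8.15 and Total RNA at 9.95 and 9.98 in replicate 2. Its IPs were under Total RNA within each replicate, with -1.40 ± 0.31 (SE, adjusted p = 0.0224). UBE2L6 read 8.78 with miR-21 and 8.76 with the vector in AGO2 IP, with IgG IP at 9.17 and 9.05 and Total RNA at 9.43 and 9.16 in replicate 1. The replicate 2 values of UBE2L6 were 8.46 with miR-21 and 8.04 with the vector in AGO2 IP, with IgG IP at 8.55 and 8.23 and Total RNA at 9.92 and 10.12. Its AGO2 IPs were under Total RNA in each replicate, by more in replicate 2, with -1.15 ± 0.32 (SE, adjusted p = 0.0404); without the 2 arrays it had -0.95 ± 0.35 (SE, adjusted p = 0.0942) and was not called. USP18 had -0.45 ± 0.19 (SE, adjusted p = 0.138).

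None of the 4 antigen processing genes was called with the block. PSMB9 read 7.85 with miR-21 and 7.44 with the vector in AGO2 IP, with IgG IP at 8.44 and 8.12 and Total RNA at 8.09 and 8.03 in replicate 1. In replicate 2 it read 8.67 with miR-21 and 8.97 with the vector in AGO2 IP, with IgG IP at 8.83 and 9.07 and Total RNA at 10.18 and 10.28, where all 4 IPs were lower than Total RNA. The difference was -0.42 (adjusted p = 0.156) in replicate 1 and -1.41 (adjusted p = 0.00731) in replicate 2. The AGO2 IP values of B2M were 12.43 and 13.50 with miR-21 and 12.01 and 13.72 with the control vector. Its IgG IP values were 12.87 and 13.43 with miR-21 and 12.84 and 13.70 with the control vector, and the AGO2 IP difference from Total RNA was -0.02 ± 0.22 (SE, adjusted p = 0.955). PSMB8, in the same gene cluster as PSMB9, had -0.16 ± 0.21 (SE, adjusted p = 0.639), and TAP1, also there, -0.24 ± 0.26 (SE, adjusted p = 0.567).

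Of the 5 PARP and nuclear body genes, PARP14 fell, and of the 4 genes of other roles tested, IFI35 and XAF1 fell. PARP14, a mono-ADP-ribosyltransferase, read 5.04 with miR-21 and 4.50 with the vector in AGO2 IP, with IgG IP at 5.5 and 5.14 and Total RNA at 5.97 and 5.97 in replicate 1. It read 5.90 with miR-21 and 6.47 with the vector in AGO2 IP, with IgG IP at 5.95 and 6.32 and Total RNA at 7.04 and 7.04 in replicate 2. Its IPs were lower than Total RNA within each replicate, with -1.03 ± 0.25 (SE, adjusted p = 0.0272); a dim second probe set had 0.17. SP100, a nuclear body protein, had 0.67 ± 0.20 (SE, adjusted p = 0.0536), and PARP9 0.34 ± 0.25 (SE, adjusted p = 0.397). The 6 probe sets of SP100 disagreed, with differences from -0.28 to 1.05. SP110 read 7.10 with miR-21 and 7.07 with the vector in AGO2 IP, with IgG IP at 7.41 and 7.41 and Total RNA at 7.49 and 7.57 in replicate 1. For SP110 the replicate 2 values were 8.10 with miR-21 and 8.32 with the vector in AGO2 IP, with IgG IP at 8.18 and 8.16 and Total RNA at 8.67 and 8.87. It had -0.50 ± 0.18 (SE, adjusted p = 0.0954), lower in both replicates but not called. With the mean of a gene's probe sets in place of the brightest, PARP14 and XAF1 were no longer called and SP110 was called lower.

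IFI35, a partner of the interferon-induced protein NMI, read 3.91 with miR-21 and 3.05 with the vector in AGO2 IP, with IgG IP at 4.66 and 4.56 and Total RNA at 5.26 and 5.09 in replicate 1, with the AGO2 IPs lowest. It read 5.44 with miR-21 and 5.32 with the vector in AGO2 IP, with IgG IP at 5.41 and 5.54 and Total RNA at 6.08 and 5.90 in replicate 2, with smaller gaps, and the difference was -1.15 ± 0.28 (SE, adjusted p = 0.027). The Total RNA signal of IFI35 lay within the range of the genes of other tissues, so this difference gives no exact size. XAF1, a pro-apoptotic factor, read 6.36 with miR-21 and 6.33 with the vector in AGO2 IP, with IgG IP at 6.43 and 6.67 and Total RNA at 7.53 and 7.63 in replicate 1. XAF1 in replicate 2 had values of 8.47 with miR-21 and 8.85 with the vector in AGO2 IP, with IgG IP at 8.73 and 8.89 and Total RNA at 9.10 and 9.25. The IPs were lower in each replicate, with -0.87 ± 0.22 (SE, adjusted p = 0.0295); its other probe sets had -0.31 and -0.09. IFI6, a mitochondrial and endoplasmic reticulum protein, read 7.74 with miR-21 and 7.33 with the vector in AGO2 IP, with IgG IP at 8.50 and 7.84 and Total RNA at 8.21 and 7.91 in replicate 1. It read 8.19 with miR-21 and 8.47 with the vector in AGO2 IP, with IgG IP at 8.39 and 8.52 and Total RNA at 8.98 and 9.42 in replicate 2, and its difference was -0.69 ± 0.26 (SE, adjusted p = 0.104), which did not pass.

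**Figure D3:**
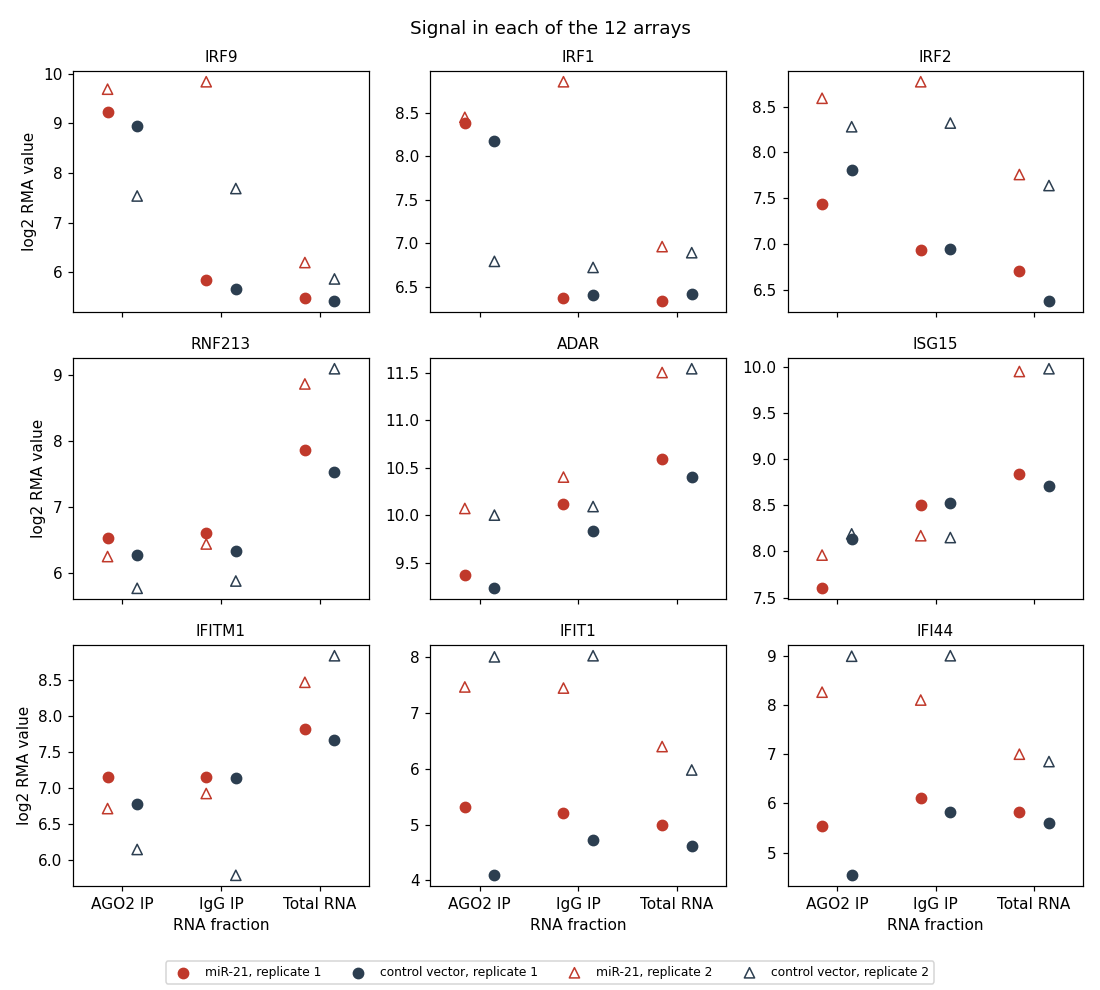
Log2 RMA signal (y axes) in each of the 12 arrays for 9 genes named above, by RNA fraction along the x axes, with miR-21 to the left of the control vector. Circles are replicate 1 and triangles replicate 2; IRF9 and IRF1 are high in the replicate 1 AGO2 IPs and in both miR-21 IPs of replicate 2, and IFIT1 and IFI44 are high in all 4 IPs of replicate 2.

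Whether the arrays overlap was also counted within each replicate. In 6 genes (IFIT3, IFIT5, IRF2, IRF9, TRIM22 and SP100, background 11.4%) both AGO2 IPs were above both Total RNA arrays in each replicate; the Total RNA signal of TRIM22 lay within the range of the genes of other tissues. In 19 genes (background 21%) both were below. The 9 genes that fell with the block are among these 19, together with IFITM2, IFITM3, IFI6, MX1, OAS3, OASL, IRF3, SP110, PSMB9 and USP18. Recovery was also summarised by promoter, with no test: the median AGO2 IP difference was -0.47 in replicate 1 and -0.38 in replicate 2 over 19 tested genes with the motif, and -0.43 and -0.54 over 12 without it.

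IgG IP was compared with Total RNA to measure what a control antibody recovers. RNF213 was the 1 gene that fell with the block (background 1.62%), and none rose (0.296%). Without the block limma called 0 genes (0%), 4 of the 40 had an unadjusted p under 0.05, and 437 of all genes (3.41%) did. RNF213 had -2.02 ± 0.36 (SE, adjusted p = 0.03), -1.23 in replicate 1 and -2.81 in replicate 2. Its difference is near that of the AGO2 IP, -2.13, which shares the same Total RNA arrays. The other probe sets of RNF213 disagreed, from -2.16 to 0.33, and with the mean of its probe sets RNF213 was not called. The call stood when control vector Total RNA replicate 1, control vector AGO2 IP replicate 1 or control vector AGO2 IP replicate 2 was left out. Without either of the last 2 arrays, IFIT3 was also called higher and ADAR lower, with no share of all genes given here. Leaving out any of the other 9 arrays gave 0 calls, and without the 2 arrays that go against replicate 1 RNF213 had -1.87 ± 0.41 (SE, adjusted p = 0.103), with 0 genes of the 40 higher (0.0468%) and 0 lower (0.351%) and 11 at an unadjusted p under 0.05 in limma.

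The IgG IPs of the replicates differed. In replicate 1, 0 genes rose (0.959%) and 2 fell (RNF213 and XAF1, 3.22%), and the median over the 40 genes was -0.06. In replicate 2, 8 rose (BST2, IFI44, IFIT1, IFIT2, IFIT5, IRF2, PARP9 and SP100, background 10.5%) and 9 fell (ADAR, IFITM1, IFITM2, IFITM3, IRF7, ISG15, PSMB9, RNF213 and UBE2L6, background 13.4%), with a median of -0.30. Of the 8, IFIT1, IFIT2, IFI44, IFIT5, PARP9 and SP100 were also called higher in the AGO2 IPs of replicate 2, which share its Total RNA arrays. The 6 highest means with the block were 1.52 for IRF9, 0.94 for IFI44, 0.85 for IFIT1, 0.82 for IFIT3, 0.74 for BST2 and 0.63 for IRF2. Besides RNF213, the 6 lowest held -1.45 for IFITM1, -1.03 for ISG15, -0.91 for UBE2L6, -0.90 for ADAR and -0.90 for IFITM2. None of these 11 passed with the block.

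**Figure D4:**
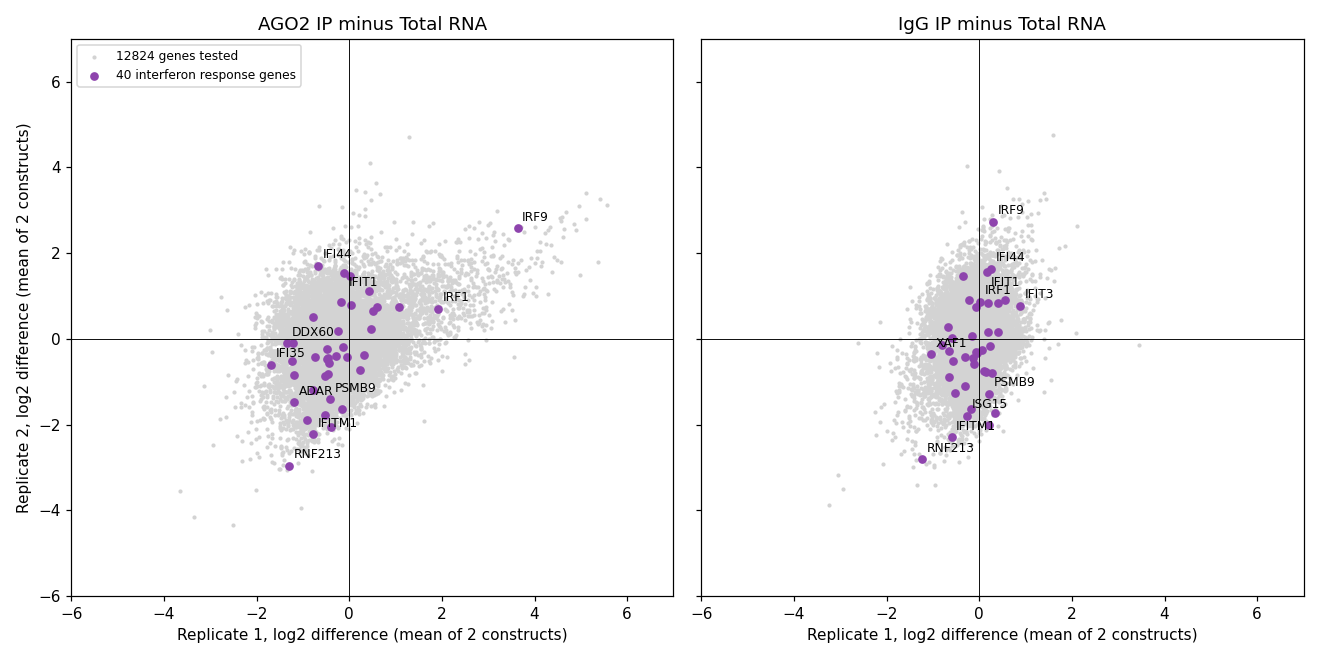
Log2 difference of AGO2 IP (left) and IgG IP (right) from Total RNA, each as the mean of the 2 constructs, in replicate 1 (x axis) and replicate 2 (y axis); grey points are the 12824 genes tested and purple points the 40 interferon response genes. IRF9 is far to the right in AGO2 IP and near 0 on that axis in IgG IP, but it is high on the y axis in both panels. IFIT1, IFI44 and IFITM1 spread along the y axis in both panels.

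AGO2 IP was compared with IgG IP, its antibody background, and no gene of the 40 passed over the 12 arrays, with or without the block (0% of all genes tested in each). At an unadjusted p under 0.05 there were 0 of the 40 and 29 of all genes without the block, and 1 of the 40 and 663 of all genes with it. In replicate 1, 5 rose (background 12%): IRF9 with 3.34 ± 0.18 (SE, adjusted p = 0.000115), IRF1 with 1.90 ± 0.16 (SE, adjusted p = 0.000448), PARP12 with 0.90 ± 0.19 (SE, adjusted p = 0.0183), IRF2 with 0.68 ± 0.20 (SE, adjusted p = 0.0497) and IFIT5 with 0.63 ± 0.18 (SE, adjusted p = 0.0452). In the same replicate 4 fell (background 11.5%): IFI35 with -1.13 ± 0.28 (SE, adjusted p = 0.0304), ADAR with -0.68 ± 0.18 (SE, adjusted p = 0.0367), DDX60 with -0.68 ± 0.18 (SE, adjusted p = 0.0371) and IFITM2 with -0.61 ± 0.17 (SE, adjusted p = 0.0432).

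In replicate 2 none was called in either direction (0%), 0 of the 40 and 52 of all genes had an unadjusted p under 0.05 in limma, and the differences ran from -0.39 to 0.24. There IRF9 had -0.15 ± 0.91 (SE, adjusted p = 1), IRF1 -0.17 ± 0.81 (SE, adjusted p = 1) and PARP12 -0.39 ± 0.60 (SE, adjusted p = 1). Leaving out the 2 arrays that go against replicate 1 is no test here, since they were chosen by how alike AGO2 IP and IgG IP were, and the replicate 2 arrays left are miR-21 AGO2 IP and control vector IgG IP, where antibody and construct cannot be told apart. As a description, IRF9 then had 2.94 and IRF1 1.83, the 2 genes past the threshold on the higher side (background 5.95%), with 0 on the lower side (1.47%). IFIT5 and, at the low signal given above, TRIM22 were the 2 genes whose AGO2 IPs were above the IgG IPs in both replicates (background 1.23%), and IRF3 and ADAR the 2 below in both (3.9%). With the block, the 6 highest means also held IFIT2 (0.18), and the 6 lowest also held IFI44 (-0.43), IFI6 (-0.38), PSMB9 (-0.38) and ISG15 (-0.37).

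In the IPs, no gene of the 40 was called for the construct in AGO2 IP or IgG IP, nor for its interaction with a fraction, with or without the block (0% of all genes tested each time). With the block and at an unadjusted p under 0.05 there were 0 of the 40 in AGO2 IP and 0 in IgG IP, against 353 and 123 of all genes. Without the block the counts were again 0 of the 40, against 11 and 4 of all genes. The interactions had 0 of the 40 in each, against 60 of all genes for AGO2 IP over Total RNA, 23 for IgG IP over Total RNA and 39 for AGO2 IP over IgG IP with the block, and 0 without it. IRF9, IRF1 and PARP12 had the highest differences, which came from replicate 2 and rest on the labels of the 2 arrays that go against replicate 1. If those 2 labels were exchanged, the replicate 2 values would be differences between AGO2 IP and IgG IP within a construct. Which of these readings holds was not tested. In AGO2 IP, miR-21 minus control vector was 0.30 in replicate 1 and 2.15 in replicate 2 for IRF9, 0.21 and 1.66 for IRF1, and 0.19 and 1.21 for PARP12. In IgG IP it was 0.19 and 2.15 for IRF9, -0.03 and 2.14 for IRF1, and 0.29 and 1.53 for PARP12.

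PARP12, a mono-ADP-ribosyltransferase of the Golgi, read 7.63 with miR-21 and 7.45 with the vector in AGO2 IP, with IgG IP at 6.78 and 6.49 and Total RNA at 7.36 and 7.07 in replicate 1. It read 8.78 with miR-21 and 7.57 with the vector in AGO2 IP, with IgG IP at 9.33 and 7.81 and Total RNA at 8.41 and 8.70 in replicate 2, where both vector IPs were under Total RNA and both miR-21 IPs above the vector IPs. With the block the construct difference in AGO2 IP was 1.23 ± 0.98 (SE, adjusted p = 1) for IRF9, 0.94 ± 0.69 (SE, adjusted p = 1) for IRF1 and 0.70 ± 0.47 (SE, adjusted p = 1) for PARP12. Without the 2 arrays the control vector has 1 AGO2 IP array, so the values, 0.07 for IRF9, 0.05 for IRF1 and 0.12 for PARP12, are given with no test. In IgG IP with the block it was 1.17 ± 0.98 (SE, adjusted p = 1) for IRF9, 1.05 ± 0.69 (SE, adjusted p = 1) for IRF1 and 0.91 ± 0.47 (SE, adjusted p = 1) for PARP12. Without the 2 arrays miR-21 has 1 IgG IP array, and the values were -0.37, 0.00 and 0.28 in the same order, again with no test.

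At the low end, with the block, AGO2 IP had -0.46 ± 0.40 (SE, adjusted p = 1) for EIF2AK2, -0.42 ± 0.30 (SE, adjusted p = 1) for MX1 and -0.38 ± 0.43 (SE, adjusted p = 1) for ISG15. IgG IP had -0.59 ± 0.41 (SE, adjusted p = 1) for DDX60, -0.37 ± 0.26 (SE, adjusted p = 1) for IFIT3 and -0.31 ± 0.70 (SE, adjusted p = 1) for IFI44. The median over the 40 genes was 0.23 in AGO2 IP of replicate 1 and -0.14 in replicate 2, where all genes had 0.13 and 0.02.

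**Figure D5:**
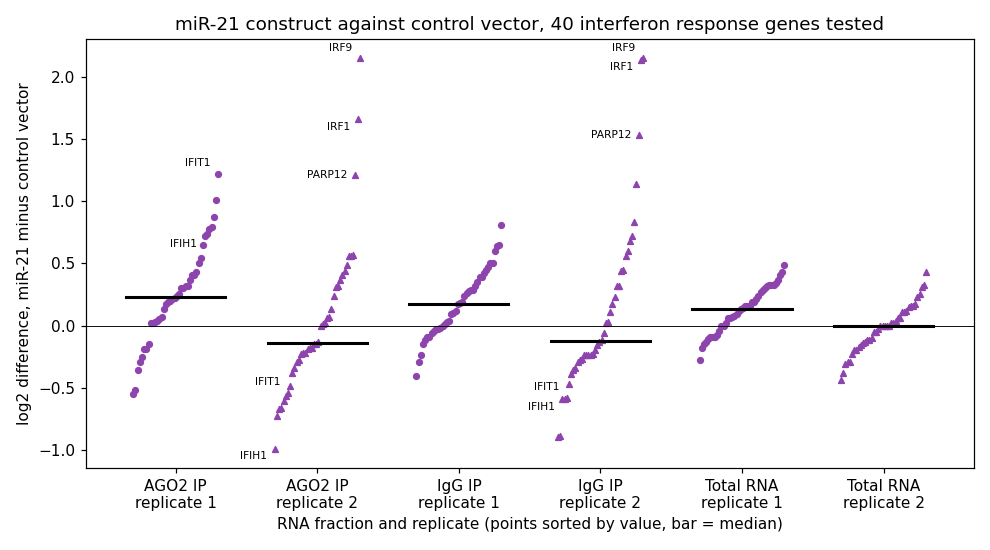
Log2 difference, miR-21 minus control vector (y axis), of the 40 tested genes in each fraction and replicate (x axis), sorted by value, with the median as a bar. IRF9, IRF1 and PARP12 lie above 1 in both IPs of replicate 2 and near the other genes in replicate 1, and the Total RNA points stay within 0.5 of 0.

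Other genes of the pathway were measured the same way. In AGO2 IP against Total RNA with the block, of 17 tested receptors, kinases and factors outside the list 3 rose and 1 fell, against 4.71% higher and 11.3% lower of all genes tested. The interferon receptor chains IFNAR2 and IFNGR2 had 1.71 (adjusted p = 0.0236) and 1.80 (adjusted p = 0.0429), and IL10RB, a chain shared by interferon lambda and IL-10 receptors, 0.94 (adjusted p = 0.034). TYK2, a kinase of the type I receptor, had -0.90 (adjusted p = 0.0253). Of 6 negative regulators SOCS1, which blocks JAK kinases, was called higher, with a fitted difference of 3.59 (adjusted p = 0.028). Its Total RNA signal lay at the 33.4 to 56.7 percentile, within the range of the genes of other tissues, so the fitted difference gives no exact size. The filter took the mean over all arrays, so the IP values of SOCS1 counted towards passing it. Its Total RNA values lay under the filter of 4.02 in replicate 1 and above it in replicate 2. The call is thus of a gene admitted in part by its IP signal, and is read as a description. SOCS1 read 8.59 with miR-21 and 8.10 with the vector in AGO2 IP, with IgG IP at 4.07 and 3.39 and Total RNA at 2.79 and 3.14 in replicate 1. In replicate 2 it read 7.51 with miR-21 and 5.57 with the vector in AGO2 IP, with IgG IP at 7.67 and 5.52 and Total RNA at 4.97 and 4.52. It was thus highest in the AGO2 IPs of replicate 1 and, like IRF9, higher in the miR-21 IPs than in the vector IPs of replicate 2.

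Of 8 tested sensing genes, the adaptor MAVS (-0.67, adjusted p = 0.0382) and the ubiquitin ligase TRAF3 (-1.61, adjusted p = 0.0128) fell (background 11.3%). TRAF3 also fell in IgG IP (-1.42, adjusted p = 0.0325, background 1.62%). Of 15 other genes of antigen processing and HLA class I, 6 fell and none rose, against the same 11.3% and 4.71% of all genes: HLA-B (-1.20), HLA-C (-1.14), HLA-E (-1.18), PSME1 (-1.32), TAP2 (-1.27) and TAPBP (-1.48), with adjusted p from 0.0133 to 0.0407 in limma. HLA class I genes are alike in sequence, so their probe sets may share signal. Of 10 T cell markers, CD3E (-0.74) and PTPRC (-0.74) fell and none rose, against the same shares of all genes, 11.3% and 4.71%. The fit without the 2 arrays that go against replicate 1 is again a description and no test, since they were chosen from the values. SOCS1, IFNAR2, IFNGR2, IL10RB and TYK2 were then still past the threshold and MAVS, HLA-C and PSME1 were not. STAT5B and CD2 were added on the lower side.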

How the data were processed

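The 12 Affymetrix arrays were used as deposited, on the log2 scale: per the submitters' processing notes the authors made the log2 values with RMA, and the sources used here give neither its version nor whether the arrays were normalized jointly. Of 54675 probe sets, 62 were controls, 41091 had 1 gene symbol, 1801 several and 11721 none. The 12824 genes with a mean at or above 4.02, the median of the probe sets other than controls, entered the tests.

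Tests used limma 3.58.1 in R 4.3.3, with the data.table package (1.17.8) (figures: Python 3.11.15, pandas 2.3.3, numpy 2.4.6, matplotlib 3.10.9). The model had 6 group means and no block (6 residual degrees of freedom, prior 3.04). A second model added the replicate number as a block (5 residual and 4.11 prior degrees of freedom), since the labels do not say what a number shares. To check the pairing, each array was centred on its group mean, and arrays with the same number correlated at 0.468 to 0.873 (median 0.601) over 15 pairs of groups, with only 2 numbers. Fits within 1 replicate number used the constructs as replicates (3 residual degrees of freedom). Calls required an adjusted p (Benjamini-Hochberg, over all 12824 genes) under 0.05, and every adjusted p is limma's. The script was tested on simulated data.

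The members, lists and settings were chosen with earlier results of these data known. Genes named with all values were those called over the 12 arrays with or without the block, the 6 largest changes each way between fractions and 3 each way between constructs, those above the 90th percentile in all Total RNA arrays, and IRF9, IRF7 and IRF1. Scaling, normalization, filter, probe set choice, replicate number and left-out arrays were varied.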

Additional observations from a re-analysis of the deposited data

How the results depend on the processing

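Without a block, no gene of the 40 was called in any comparison. In AGO2 IP against Total RNA, 11 were called with the replicate block, with or without median-centring, quantile normalization or cyclic loess added. The count was 10 with no filter (UBE2L6 lost) or with the mean of a gene's probe sets (PARP14 and XAF1 lost, SP110 gained), 15 in replicate 1, 18 in replicate 2, 13 without the 2 arrays named above, and 0 to 13 with 1 array left out (6 without miR-21 Total RNA replicate 1). Under quantile normalization and cyclic loess 8 of the 11 were shared with the block fit. In IgG IP against Total RNA, 1 was called with the replicate block, also after median-centring or quantile normalization; cyclic loess gave 1 as well (IFIT3, higher). The count was 2 with no filter, 0 with the mean of a gene's probe sets (RNF213 lost), 2 in replicate 1, 17 in replicate 2 and 0 to 3 with 1 array left out. Shares of all genes are not given for scaling, normalization, filter, probe set choice or 1 array left out. In AGO2 IP against IgG IP, 9 were called in replicate 1, and 2 were past the threshold without the 2 arrays, which is no test there. The construct comparisons had no call under any setting run, and the replicate block changed no other call.

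Some named differences had the opposite sign under a setting. In replicate 1, IFIT1 had -0.11 in AGO2 IP against Total RNA and IFITM2 had 0.21 in IgG IP against Total RNA. In AGO2 IP against IgG IP, replicate 2 gave 0.07 for IFI44, -0.01 for IFIT2, -0.17 for IRF1, -0.11 for IRF2, -0.15 for IRF9 and -0.39 for PARP12. The mean of probe sets gave -0.01 for IFIT2. With 1 array left out these differences ran from -1.03 to 0.17 for IFI44, from -0.13 to 0.49 for IFIT2 and from -0.12 to 0.63 for PARP12, with -0.10 for PARP12 without control vector AGO2 IP replicate 1. Between constructs in AGO2 IP, leaving out 1 array gave -0.16 to 2.03 for IRF1, -0.24 to 2.69 for IRF9 and -0.01 to 1.40 for PARP12, and EIF2AK2 had 0.02 without the 2 arrays. In IgG IP it gave -0.74 to 0.12 for IFI44, -0.18 to 2.29 for IRF1 and -0.60 to 2.95 for IRF9, and without the 2 arrays IRF1 had 0.00 and IRF9 -0.37. In Total RNA it gave -0.09 to 0.58 for BST2, -0.23 to 1.02 for IFIT1, with -0.19 for another array, -0.88 to 0.58 for IFITM3, with 0.54 for another array, and -0.29 to 0.02 for SP110. The cause of these changes was not tested. With 2 arrays a group, the number of arrays limits the precision of all comparisons.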
